A study of Brassica rapa subsp. pekinensis with 4 samples.

Results

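The glucosinolate genes of Chinese cabbage (*Brassica rapa* ssp. *pekinensis*) were examined in shoots of the early-bolting inbred line “4004”. Members were chosen by rule: every gene of the table whose Arabidopsis match, as deposited, was 1 of 44 loci for glucosinolate synthesis, transport and breakdown. The rule found 103 genes of 38 loci among 36698 genes listed, and 97 of them passed the filter on low values. No gene was matched to *MAM3*, *IPMI1*, *CYP79F2*, *FMOGS-OX1*, *AOP2* or *AOP3*. Poly(A) RNA of shoots was sequenced from 2 libraries without cold (0D Ver, from plants labelled as 2 weeks old, kept at 23 °C and a day of 16 h) and 2 libraries after 35 days at 5 °C and a day of 12 h (35D Ver, from plants labelled as 7 weeks old). All libraries came from the same inbred line. The sources differ on when the cold began, since the labels give 2 weeks of growth and the study's methods a shorter time. Cold, age and day length differed together between the conditions, and their parts in any difference cannot be told apart. Library totals ran from 17221386 to 23428420 counts.

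Glucosinolates are sulfur-rich defence compounds of the cabbage family. The aliphatic branch starts from methionine, whose side chain is lengthened before the core structure is built, whereas the indolic branch starts from tryptophan. Intact glucosinolates are stored apart from myrosinases, and when tissue is damaged these enzymes cleave them, while specifier proteins steer the products from isothiocyanates towards nitriles. The gene roles given here are those known from Arabidopsis.

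After 35 days of cold, most indolic synthesis genes, all tested copies of the transporters *GTR1* and *GTR2* and most specifier protein genes were lower. Most aliphatic genes did not pass the test. Of the 97 tested members, 58 (59.8%) passed an adjusted p of 0.05, with 14 higher and 44 lower in 35D Ver (limma, Benjamini-Hochberg adjustment over 29691 genes). Among all tested genes 40.6% passed, 20.1% higher and 20.5% lower. With a 2-fold change also required, 7 members rose and 35 fell, against 5.97% and 7.76% of all tested genes. The median log2 fold change of the members was -0.68, and that of all tested genes was -0.01. Members took 0.748% and 0.711% of the counts in the 0D Ver libraries and 0.46% and 0.406% in the 35D Ver libraries. The number that rose fell to 9 without 0D Ver replicate 2 and also without 35D Ver replicate 1, and the number that rose 2-fold fell to 3 without 35D Ver replicate 1 and also without 35D Ver replicate 2. In whole shoots, fewer cells of a type and less RNA per cell cannot be told apart.

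**Figure D1:**
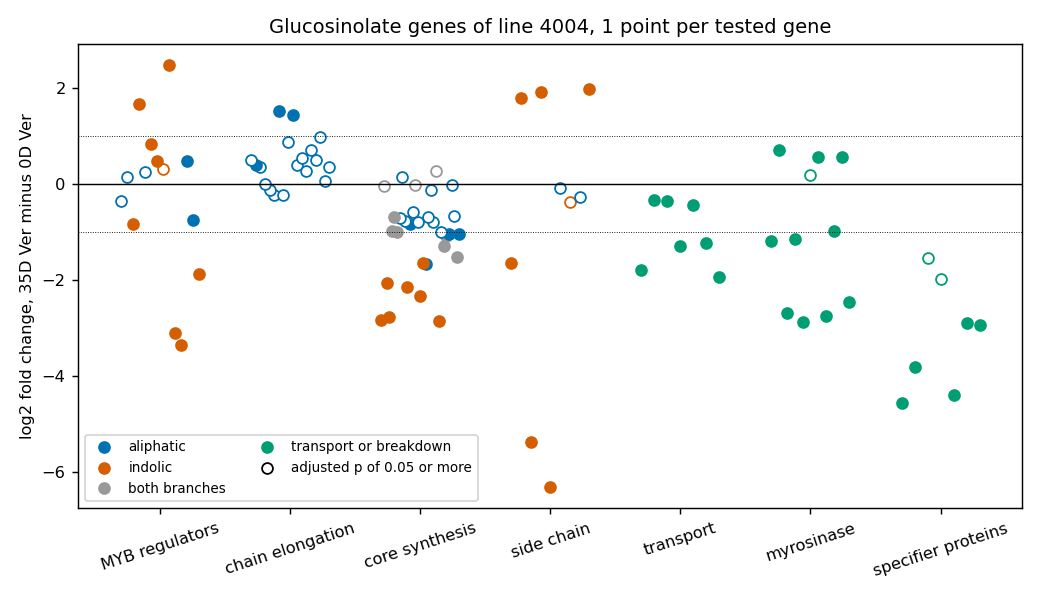
Log2 fold change (35D Ver minus 0D Ver) of the 97 tested genes, 1 point each, by role and coloured by branch; filled points passed an adjusted p of 0.05 and dotted lines mark a 2-fold change. The points reach from -6.31 to 2.48, and all 7 transporter genes lie below 0.

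The branches were compared as a description. Of 40 tested aliphatic members, 4 rose, 5 fell and 31 did not pass, with a median log2 fold change of -0.04. Of 23 tested indolic members, 7 rose, 14 fell and 2 did not pass, with a median of -1.64. The shares that passed were 22.5% of the aliphatic and 91.3% of the indolic members, against 40.6% of all tested genes. Across the 4 pairings of a 35D Ver with a 0D Ver library the aliphatic median ran from -0.41 to 0.38 and the indolic median from -1.94 to -1.46, so the ranges did not overlap. The summed normalized counts of aliphatic members were 30754 and 26054 in 0D Ver and 30336 and 25173 in 35D Ver. Those of indolic members were 17556 and 16726 in 0D Ver and 4486 and 4230 in 35D Ver. The aliphatic sums overlapped between the conditions and the indolic sums did not. The aliphatic sum joined loci with many counts that moved in opposite directions. The mean sum of the *CYP83A1* copies was 7053 in 0D Ver and 2537 in 35D Ver. That of the *IIL1* copies was 8375 in 0D Ver and 10598 in 35D Ver. The ratio of the aliphatic to the indolic sum was 1.75 and 1.56 in 0D Ver and 6.76 and 5.95 in 35D Ver. These sums were not corrected for gene length, so only their change between conditions can be read. Without 35D Ver replicate 1, and also without 35D Ver replicate 2, 3 indolic members rose, and without 0D Ver replicate 2, 2 aliphatic members rose.

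**Figure D2:**
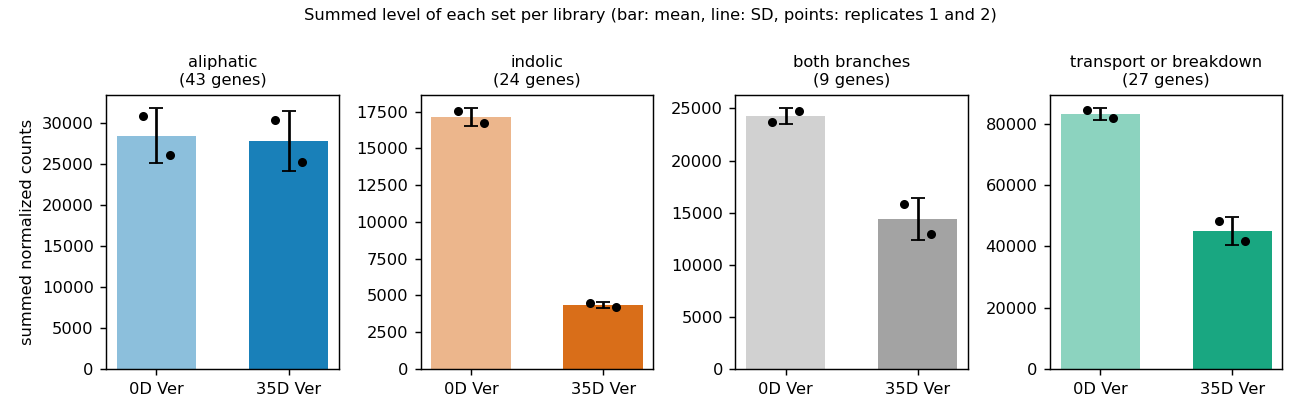
Summed normalized counts of the aliphatic, indolic, both-branch and transport or breakdown genes in 0D Ver and 35D Ver; bars are means of 2 libraries, lines are SD and points are libraries. The indolic mean went from 17141 to 4358 and the aliphatic mean from 28404 to 27754.

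Among the regulators, 5 of 14 tested genes rose (35.7%) and 5 fell (35.7%), against 20.1% and 20.5% of all tested genes. The direction followed the locus within the indolic branch. *MYB34* (AT5G60890), an activator of indolic synthesis, was lower in all 4 copies. Bra013000 had 193 and 248 normalized counts in 0D Ver and 27.5 and 15.5 in 35D Ver, a log2 fold change of -3.34 ± 0.28 (SE; limma, adjusted p = 7.36e-05). Bra029349 had 164 and 188 against 52.2 and 41.9 (log2 fold change -1.88), and Bra035954 had 59.9 and 80.6 against 8.24 and 6.38 (-3.09). In these 3 copies the conditions did not overlap. The same held for 73.1% of all tested genes, so a lack of overlap between 2 and 2 libraries describes a gene's values and adds no support to its call. Bra029350 changed least, with 66.7 and 62.2 against 42.1 and 30.1 (-0.84, limma adjusted p = 0.0193). Its call was lost without 0D Ver replicate 1 (adjusted p = 0.0842), without 0D Ver replicate 2 (0.0622) and without 35D Ver replicate 2 (0.109).

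The other indolic activators were higher. *MYB122* (AT1G74080), a further activator, had low counts. Its copy Bra008131 had 4.91 and 6.1 normalized counts in 0D Ver and 26.6 and 46.5 in 35D Ver (log2 fold change 2.48 ± 0.35, limma adjusted p = 0.00089), and Bra015939 had 6.87 and 7.32 against 18.3 and 32.8 (1.66 ± 0.35, adjusted p = 0.00629). In both copies the conditions did not overlap, as in 73.1% of all tested genes. *MYB51* (AT1G18570), a regulator that responds to stress, had 381 and 270 against 435 and 460 in its highest copy Bra016553 (0.48 ± 0.16, limma adjusted p = 0.046). Its copy Bra031035 rose as well (0.84, adjusted p = 0.0112), and Bra025666 overlapped between the conditions (0.31, adjusted p = 0.195). The call of Bra016553 was lost without 0D Ver replicate 2 (adjusted p = 0.262), without 35D Ver replicate 1 (0.0688) and without 35D Ver replicate 2 (0.128).

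Of the aliphatic activators, *MYB28* (AT5G61420) moved in opposite directions in its copies. Bra029311, the copy with the most counts, had 2888 and 2774 in 0D Ver and 4099 and 3859 in 35D Ver (log2 fold change 0.49 ± 0.1, limma adjusted p = 0.00638). Bra035929 had 870 and 688 against 479 and 440 (-0.75 ± 0.14, adjusted p = 0.00296), and Bra012961 overlapped between the conditions (0.14, adjusted p = 0.496). Summed over the 3 copies, the locus did not pass the test (0.29, adjusted p = 0.064). *MYB29* (AT5G07690), its close relative, had 186 and 165 against 321 and 136 in Bra005949, where the 35D Ver libraries lay on either side of the 0D Ver libraries (0.25, adjusted p = 0.669). Without 35D Ver replicate 2 its log2 fold change was 0.88 (adjusted p = 0.00242), and without 35D Ver replicate 1 it was -0.34 (0.199).

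The genes that lengthen the methionine side chain mostly did not pass the test: 3 of 18 rose and none fell. The 16.7% that rose was close to the 20.1% of all tested genes that did. *BAT5* (AT4G12030), which carries the keto acids into the plastid, had 71.6 and 31.7 normalized counts in 0D Ver and 181 and 106 in 35D Ver in Bra000760 (log2 fold change 1.52 ± 0.43, limma adjusted p = 0.0354). Its other copy Bra029434 had 51 and 28.1 against 129 and 84.8 (1.44 ± 0.31, adjusted p = 0.00796). In both copies the conditions did not overlap, as in 73.1% of all tested genes. The call of Bra000760 was lost without 0D Ver replicate 2 (adjusted p = 0.0602), without 35D Ver replicate 1 (0.158) and without 35D Ver replicate 2 (0.068).

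*BCAT4* (AT3G19710), the aminotransferase that opens the pathway, had 594 and 332 against 1054 and 635 in Bra022448 (log2 fold change 0.88 ± 0.4, limma adjusted p = 0.16) and 480 and 259 against 899 and 542 in Bra001761 (0.98 ± 0.41, adjusted p = 0.139). Neither passed the test. Without 0D Ver replicate 1 both passed (1.29, adjusted p = 0.0208, and 1.42, adjusted p = 0.0154). *MAM1* (AT5G23010), the condensing enzyme, had 8 tested copies with log2 fold changes from 0.06 to 0.71, none of which passed. Its highest copy Bra029355 had 750 and 456 in 0D Ver and 965 and 573 in 35D Ver, and the conditions overlapped. Without 35D Ver replicate 2 the copy Bra018524 passed (0.91, adjusted p = 0.0202).

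The remaining chain elongation genes had log2 fold changes from -0.23 to 0.39, some of them with a large SE. *IIL1* (AT4G13430), the large subunit of the isomerase, had 4329 and 4229 against 5644 and 5576 in Bra040341 (log2 fold change 0.39 ± 0.11, limma adjusted p = 0.018), a call lost without 0D Ver replicate 1 (adjusted p = 0.082) and without 0D Ver replicate 2 (0.0952). Its copy Bra032708 did not pass (0.28, adjusted p = 0.06). *BCAT3* (AT3G49680), a plastid aminotransferase, had 556 and 587 against 522 and 458 in Bra017964 (-0.23, adjusted p = 0.155). *IPMI2* (AT2G43100, Bra004744), a small subunit of the isomerase, had 311 and 157 against 295 and 139 (-0.13 ± 0.53, adjusted p = 0.868). *IMD1* (AT5G14200, Bra023450), the dehydrogenase, had 578 and 408 against 592 and 402 (0.01 ± 0.22, adjusted p = 0.983). In both genes the replicates of a condition differed more than the conditions.

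In core synthesis, 17 of 31 tested genes (54.8%) fell, against 20.5% of all tested genes, and none rose, against 20.1%. Of these genes, all 7 tested indolic genes of the core were among those that fell. *CYP79B2* (AT4G39950) and *CYP79B3* (AT2G22330) convert tryptophan to its aldoxime. The *CYP79B2* copy Bra011821 had 1888 and 2111 normalized counts in 0D Ver and 295 and 264 in 35D Ver, a 7.15-fold lower mean (log2 fold change -2.83 ± 0.12, limma adjusted p = 1.79e-06). Bra010644 had 1284 and 1526 against 206 and 181 (-2.85), and Bra017871 had 1123 and 1343 against 198 and 162 (-2.77). The copies thus fell by similar amounts, and none of their 3 pairwise differences passed the test. *CYP79B3* (Bra030246) had 305 and 393 against 77.9 and 60.2 (-2.32 ± 0.19, limma adjusted p = 5.5e-05).

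The next indolic steps were lower too. *CYP83B1* (AT4G31500, Bra034941), which oxidises the aldoxime, had 6417 and 5353 in 0D Ver and 1949 and 1823 in 35D Ver (log2 fold change -1.64 ± 0.12, limma adjusted p = 3.66e-05). *SOT16* (AT1G74100), the sulfotransferase that prefers indolic substrates, had 1870 and 1747 against 455 and 418 in Bra008132 (-2.05 ± 0.11, adjusted p = 6.02e-06) and 568 and 568 against 129 and 125 in Bra015935 (-2.15, adjusted p = 7.81e-06). In these genes the 35D Ver libraries lay far below the 0D Ver libraries. A further *SOT16* copy, Bra003819, was too low to be tested.

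Of the 15 tested aliphatic core genes 4 fell (26.7%) and none rose, against 20.5% and 20.1% of all tested genes. The share that fell was thus near that of all genes. *CYP79F1* (AT1G16410, Bra026058), which acts on the elongated methionine derivatives, had 434 and 287 normalized counts in 0D Ver and 458 and 263 in 35D Ver (log2 fold change -0.02 ± 0.32, limma adjusted p = 0.963). *CYP83A1* (AT4G13770), the aliphatic counterpart of *CYP83B1*, had 6078 and 5021 against 2197 and 1373 in Bra032734 (-1.67 ± 0.22, adjusted p = 0.00134). Its copy Bra016908 had 1731 and 1277 against 949 and 555 (-1.03, adjusted p = 0.0351), a call lost without 0D Ver replicate 1 (-0.82, adjusted p = 0.108). The entry step thus overlapped between conditions while the step after it was lower.

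The later aliphatic enzymes were mixed. *GSTF11* (AT3G03190, Bra032010), a glutathione transferase, had 255 and 222 against 120 and 113 (log2 fold change -1.03 ± 0.14, limma adjusted p = 0.000893). *UGT74C1* (AT2G31790), a glucosyltransferase, had 744 and 522 against 627 and 764 in Bra021743, which overlapped (0.15, adjusted p = 0.528), and fell in Bra005641 (-0.84, adjusted p = 0.00958). The latter call was lost without 35D Ver replicate 1 (adjusted p = 0.0739) and without 35D Ver replicate 2 (0.0723). The aliphatic sulfotransferases *SOT17* (AT1G18590) and *SOT18* (AT1G74090) had 2 and 7 tested copies, none of which passed, with log2 fold changes from -1 to -0.12. The highest copies were Bra025668 (*SOT17*), with 170 and 142 against 142 and 65.6, and Bra015938 (*SOT18*), with 271 and 236 against 217 and 129. Without 35D Ver replicate 1, Bra025668 (-1.2, adjusted p = 0.00109), Bra015938 (-0.94, adjusted p = 0.00165) and the *SOT18* copy Bra027623 (-1.24, adjusted p = 0.0469) passed.

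Enzymes that serve both branches included 6 of 9 genes that fell (66.7%), against 20.5% of all tested genes. *GGP1* (AT4G30530), a peptidase that trims the glutathione conjugate, had 2935 and 3594 in 0D Ver and 1668 and 1652 in 35D Ver in Bra024068 (log2 fold change -0.97 ± 0.12, limma adjusted p = 0.000528). Its copies Bra011201 (2886 and 3544 against 1182 and 1072, -1.51) and Bra010283 (1039 and 1216 against 576 and 544, -1) fell as well. *UGT74B1* (AT1G24100, Bra024634), a glucosyltransferase, had 595 and 528 against 255 and 204 (-1.29 ± 0.14, adjusted p = 0.000258). The glutathione transferase gene *GSTF9* (AT2G30860) had 6934 and 6780 against 3695 and 2837 in Bra021673 (-1.08, adjusted p = 0.000589). *SUR1* (AT2G20610), the C-S lyase between these steps, overlapped between conditions, with 1338 and 1103 against 1342 and 1052 in Bra036490 (-0.03, adjusted p = 0.879). *GSTF10* (AT2G30870, Bra022816) had 1774 and 1987 against 2525 and 2045 (0.28, adjusted p = 0.122) and passed without 35D Ver replicate 2 (0.44, adjusted p = 0.0335).

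The genes that modify the side chain of indolic glucosinolates moved in opposite directions. *CYP81F4* (AT4G37410), needed for 1-methoxylation, showed the lowest log2 fold change of all members. Its copy Bra010598 had 1774 and 1501 normalized counts in 0D Ver and 32.1 and 11.9 in 35D Ver, a 74.6-fold lower mean (log2 fold change -6.31 ± 0.49, limma adjusted p = 0.00159). Bra011759 had 1064 and 1017 against 36.6 and 15.5, a 39.9-fold lower mean (-5.38 ± 0.38, adjusted p = 0.00031). The conditions were far apart in both copies, but the size of the change depended on the 35D Ver libraries. It was -6.96 without 35D Ver replicate 1 and -5.61 without 35D Ver replicate 2 in Bra010598, and -4.78 without 35D Ver replicate 2 in Bra011759.

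*CYP81F2* (AT5G57220), which starts 4-hydroxylation, was higher in all 3 copies at low levels, against 20.1% of all tested genes. Bra002747 had 5.89 and 15.9 in 0D Ver and 44.9 and 38.3 in 35D Ver (log2 fold change 1.98 ± 0.41, limma adjusted p = 0.00633). Its log2 fold change was 1.32 without 0D Ver replicate 1 and 2.64 without 0D Ver replicate 2. Bra020459 had 4.91 and 11 against 29.3 and 31.9 (1.91), and Bra006830 had 6.87 and 8.54 against 27.5 and 31 (1.8). The conditions did not overlap in any of the copies, as in 73.1% of all tested genes. *CYP81F1* (AT4G37430), a related hydroxylase, had 44.2 and 33 against 14.7 and 9.12 in Bra011762 (-1.64 ± 0.31, adjusted p = 0.00391). Its other copy Bra011761 did not pass, with 14.7 and 15.9 against 9.16 and 14.6 (-0.37 ± 0.33, adjusted p = 0.396). For the aliphatic branch, *FMOGS-OX5* (AT1G12140), a monooxygenase that oxidises the side-chain sulfur, did not pass in either copy, with 947 and 1169 against 887 and 855 in Bra026988 (-0.27, adjusted p = 0.114). That copy passed without 0D Ver replicate 1 (-0.44, adjusted p = 0.0436).

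**Figure D3:**
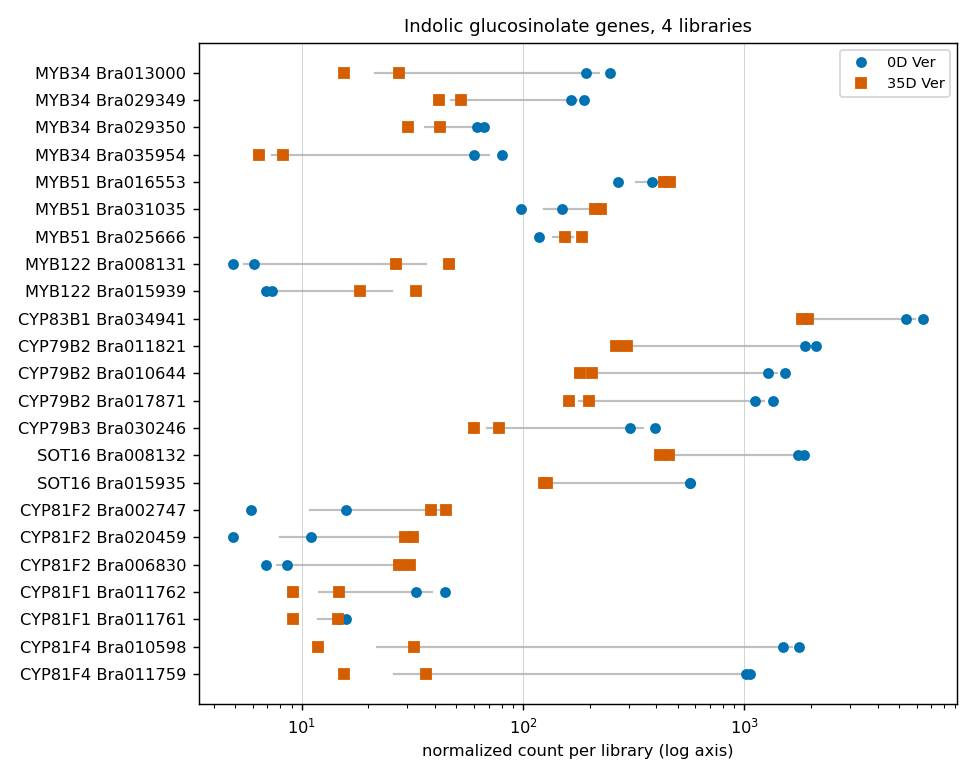
Normalized counts (log axis) of the 23 tested indolic genes in the 4 libraries; circles are 0D Ver, squares are 35D Ver and lines join the means. *MYB51*, *MYB122* and *CYP81F2* lie to the right in 35D Ver, and *MYB34*, the core genes and *CYP81F4* lie to the left.

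All 7 genes of the 2 listed transporter loci fell, against 20.5% of all tested genes. *GTR1* (AT3G47960) and *GTR2* (AT5G62680) import glucosinolates into cells and serve their loading into the phloem. The *GTR2* copy Bra010111 had 3481 and 4257 normalized counts in 0D Ver and 1518 and 1624 in 35D Ver (log2 fold change -1.29 ± 0.12, limma adjusted p = 0.000134). Bra029248 had 2484 and 3021 against 1025 and 1346 (-1.22), Bra035885 had 2064 and 2408 against 607 and 689 (-1.78), and Bra035886 had 1557 and 1808 against 412 and 471 (-1.93). In all 4 *GTR2* copies the conditions did not overlap, as in 73.1% of all tested genes.

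*GTR1* changed less than 2-fold. Bra018096 had 1674 and 1825 against 1336 and 1238 (log2 fold change -0.44 ± 0.11, limma adjusted p = 0.0113), and Bra019521 (-0.35, adjusted p = 0.0349) and Bra033782 (-0.33, adjusted p = 0.0405) passed narrowly. The call of Bra018096 was lost without 0D Ver replicate 2 (adjusted p = 0.0748) and without 35D Ver replicate 2 (0.0621). That of Bra019521 was lost without 0D Ver replicate 1 (0.0832), without 0D Ver replicate 2 (0.136) and without 35D Ver replicate 2 (0.209). That of Bra033782 was lost without each library, with adjusted p of 0.0665 and 0.193 without 0D Ver replicates 1 and 2 and of 0.119 and 0.142 without 35D Ver replicates 1 and 2. Phloem markers (*SUC2* and *APL*) fell in 5 of 5 genes, against 20.5% of all tested genes. Their summed normalized counts were 8170 to 8681 in 0D Ver and 3711 to 5257 in 35D Ver. The markers' part in the transporter result was not tested.

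The myrosinase *TGG1* (AT5G26000), which cleaves glucosinolates, was matched by 11 genes whose directions differed. In 7 copies (63.6%) the level fell, in 3 (27.3%) it rose and in 1 it did not pass. Among all tested genes 20.5% fell and 20.1% rose. The copy with the most counts in 0D Ver, Bra032343, had 14669 and 12265 in 0D Ver and 1936 and 1722 in 35D Ver (log2 fold change -2.88 ± 0.13, limma adjusted p = 2.87e-06). Bra020549 (11739 and 9779 against 1731 and 1454, -2.75), Bra020523 (10241 and 8969 against 1627 and 1366, -2.68) and Bra020551 (1565 and 1560 against 322 and 248, -2.46) fell by similar amounts. Bra023838 (1683 and 1240 against 718 and 564, -1.18), Bra039705 (1184 and 926 against 520 and 426, -1.15) and Bra038094 (-0.98) fell less. In each of these copies both 35D Ver libraries were below both 0D Ver libraries. The conditions did not overlap, in either direction, in 73.1% of all tested genes.

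The *TGG1* copies that rose were Bra004012, with 1944 and 1804 in 0D Ver and 3318 and 2817 in 35D Ver (log2 fold change 0.71 ± 0.12, limma adjusted p = 0.002), and Bra039823 and Bra039824, with 8059 and 7399 against 12576 and 10413 each (0.57 ± 0.13, adjusted p = 0.00985). The last pair held identical values in all 4 libraries and is not independent. They were 2 of 140 genes, among those with at least 100 counts in all, that shared every value with another gene of the same match. Their call was lost without 0D Ver replicate 2 (0.51, adjusted p = 0.0733). Bra016676 had 4499 and 4076 against 5367 and 4498 and overlapped (0.2, adjusted p = 0.238). Summed over all copies, *TGG1* was lower (-0.67 ± 0.13, adjusted p = 0.00552). *TGG2* (AT5G25980, Bra036914) was at or near the lowest deposited value and was not tested. *FAMA*, a marker of the myrosin cell lineage and of guard cells, had 0 of 3 tested copies that passed, against 40.6% of all tested genes. Its summed counts were 598 to 619 in 0D Ver and 529 to 582 in 35D Ver.

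Of the 7 tested specifier protein genes 5 fell (71.4%, against 20.5% of all tested genes), and both *NSP5* copies did not pass. *ESP* (AT1G54040), which diverts the products to nitriles and epithionitriles, had 4994 and 7125 normalized counts in 0D Ver and 303 and 208 in 35D Ver in Bra037958, a 23.7-fold lower mean (log2 fold change -4.56 ± 0.23, limma adjusted p = 2.78e-05). Its copy Bra039702 had 1023 and 1539 against 195 and 145 (-2.89 ± 0.22, adjusted p = 8.94e-05). The conditions were far apart in both copies.

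*NSP1* (AT3G16400), a nitrile specifier, was near the lowest deposited value in 35D Ver. Bra040923 had 90.3 and 62.2 against 1.83 and 3.65 (log2 fold change -4.39, limma adjusted p = 5.56e-05), Bra022159 had 39.2 and 37.8 against 1.83 and 1.82 (-3.81), and Bra022157 had 25.5 and 14.6 against 0.916 and 2.73 (-2.93). With the 1 that appears to have been added to each value removed, 4, 2 and 2 counts remained in 35D Ver, and the ratios of 0D Ver to 35D Ver were 42 (exact 95% interval 16 to 156), 41.1 (10.9 to 346) and 21.4 (5.52 to 184). These intervals cover counting error only. *NSP5* (AT5G48180) did not pass in either copy. Bra037506 had 543 and 1427 against 154 and 319 (-1.98 ± 0.71, adjusted p = 0.126), and Bra020713 had 109 and 265 against 36.6 and 91.2 (-1.54 ± 0.65, adjusted p = 0.144). Without 0D Ver replicate 1 they passed (-2.69, adjusted p = 0.0397, and -2.19, adjusted p = 0.0374).

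**Figure D4:**
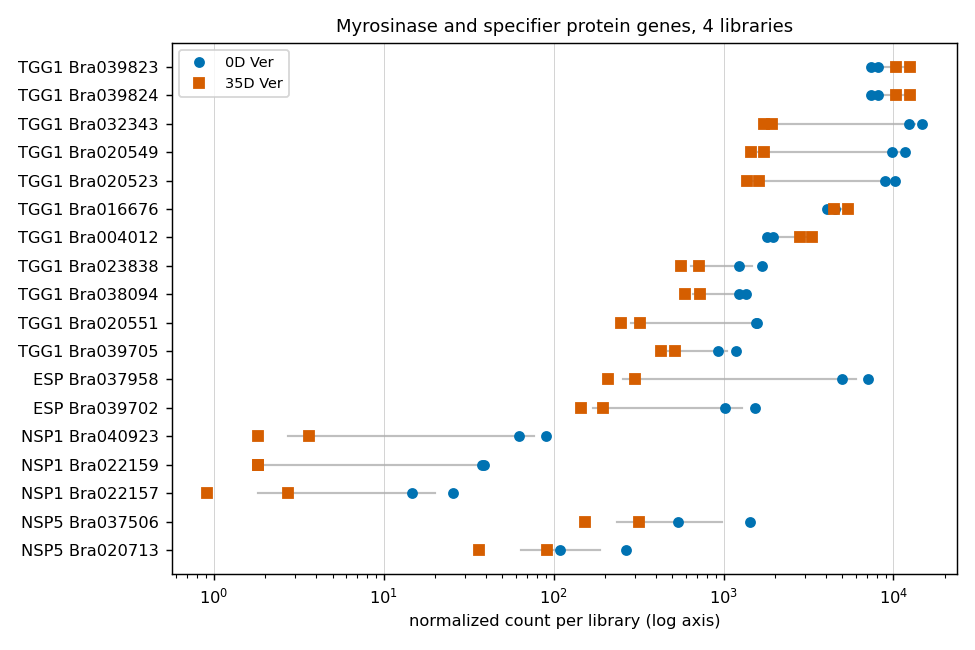
Normalized counts (log axis) of the 18 tested myrosinase and specifier protein genes in the 4 libraries; circles are 0D Ver, squares are 35D Ver and lines join the means. *TGG1* copies lie on either side, while *ESP* and *NSP1* lie to the left in 35D Ver.

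Whether copies of a locus changed by different amounts was tested on the difference between copies. Among loci with 2 to 6 tested copies, 19 of 50 pairs at glucosinolate loci passed, against 10.7% of all 16833 pairs (limma, adjusted p below 0.05). The pairs included 5 of 6 of *MYB34* and 2 of 3 of *MYB28*, where Bra029311 exceeded Bra035929 by 1.24 ± 0.13 on the log2 scale (adjusted p = 0.0313). They also included the *ESP* copies, whose changes differed by 1.67 ± 0.08 (adjusted p = 0.0225), and 3 of 6 pairs of *GTR2*. With loci of up to 20 copies, where 12.8% of all pairs passed, 43 of 54 *TGG1* pairs passed, and 0 of 28 *MAM1* and 0 of 21 *SOT18* pairs did. Pairs share genes and are not independent. Without the filter on low values, 4 pairs at glucosinolate loci and 508 over all loci passed. The calls did not hold, at glucosinolate loci or over all loci, with any 1 of the 4 libraries left out, which leaves 1 library in a condition. The count also depended on the variance trend of the fit, and a trend on the level of the lower copy, tried after these results had been seen, gave 23 of 50 pairs and 3866 (23%) of all pairs.

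Because reads of near-identical copies can be divided between them, the copies of each locus were also summed. Of 37 tested loci 5 rose, 17 fell and 15 did not pass, against 40.3% of all 16976 loci that passed, 19.9% higher and 20.4% lower (limma). All 10 indolic loci passed, 3 higher (*MYB51*, *MYB122* and *CYP81F2*) and 7 lower. Of 16 aliphatic loci 2 rose (*BAT5* and *IIL1*), 2 fell (*CYP83A1* and *GSTF11*) and 12 did not pass. The number of loci that rose was 2 without 35D Ver replicate 1 and 3 without 0D Ver replicate 2.

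The replicates themselves differed in the aliphatic genes. Replicate 1 was above replicate 2 in both conditions for 32 of 40 tested aliphatic members (80%), for 16 of 18 chain elongation genes and for 30.4% of the indolic members, while 21% of all tested genes showed this order. The median log2 difference of replicate 1 over replicate 2 in aliphatic members was 0.45 in 0D Ver and 0.55 in 35D Ver. Both *NSP5* copies had the opposite order. Replicate numbers only name the libraries, the members share these libraries, and what set the replicates apart was not tested.

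**Figure D5:**
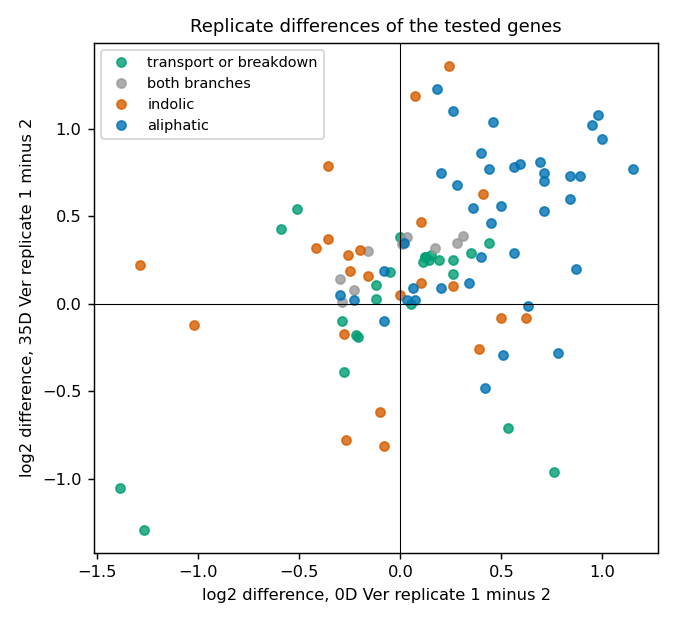
Log2 difference between replicate 1 and replicate 2 in 0D Ver (x axis) and in 35D Ver (y axis) for the 97 tested genes, coloured by branch. Of the 40 aliphatic genes, 32 lie at the upper right, where replicate 1 was higher in both conditions.

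Genes that act beside the listed loci were taken from a list of 39 further pathway loci, of which 30 had a match, with 61 tested genes. Of these, 12 rose (19.7%) and 35 fell (57.4%), against 20.1% and 20.5% of all tested genes, so the share that rose was near that of all genes. Of the 15 tested regulators in this list 2 rose (13.3%) and 8 fell (53.3%). *SLIM1* rose in Bra015970 (log2 fold change 0.94) and Bra008110 (0.85) and did not pass in Bra003831. The *SDI1* genes Bra037456 (-2.79 ± 0.67, limma adjusted p = 0.0487), Bra020675 (-2.93 ± 0.67, 0.0421) and Bra036158 (-3 ± 0.67, 0.0355) passed narrowly as lower. Their 0D Ver replicates were far apart, with 294 and 980 against 71.4 and 83 in 35D Ver in Bra037456. No tested *SDI2* or *IQD1* gene passed. *MYC2*, *MYC3* and *MYC4*, partners of the MYB regulators, fell in 5 of 6 genes. The *MYC2* gene Bra010178 had 3734 and 3852 normalized counts in 0D Ver and 858 and 936 in 35D Ver (log2 fold change -2.08 ± 0.1, limma adjusted p = 4.81e-06). The kinases *APK1* and *APK2*, which make the sulfate donor, fell in 5 of 5 genes (-2.29 to -1.55). *GSL-OH*, which hydroxylates an aliphatic side chain, had 4473 and 5666 against 297 and 329 in Bra022920 (-4.01 ± 0.13, adjusted p = 1.03e-06). Unlike *GTR1* and *GTR2*, the transporter gene *GTR3* rose in Bra016534, with 624 and 580 against 818 and 916 (0.52 ± 0.11, adjusted p = 0.00668). Its other 2 genes did not pass (-0.38 in Bra031054 and -0.55 in Bra025695).

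Indolic methyltransferase genes split between loci. The indolic cytochromes differed too: *CYP81F2* rose, while *CYP81F4* and the *CYP81F1* copy Bra011762 fell. *CYP81F3*, from the list of further loci, fell in Bra011758 (log2 fold change -1.01, limma adjusted p = 0.0194) and Bra010597 (-1.21, adjusted p = 0.01). *IGMT1* and *IGMT2*, which methylate the 4-hydroxy product, rose in 6 of 6 tested genes, against 20.1% of all tested genes. Bra012269 had 254 and 275 against 926 and 928 (log2 fold change 1.81 ± 0.11, limma adjusted p = 1.3e-05). *IGMT5*, which acts in 1-methoxylation, fell in both genes, against 20.5% of all tested genes. Bra015719 had 2144 and 2994 against 560 and 601 (-2.13 ± 0.16, adjusted p = 4.2e-05). In the breakdown list, 10 of 13 tested genes (76.9%) fell, against 20.5% of all tested genes, and none rose, among them 4 of 4 nitrilase genes matched to *NIT2* (-1.91 to -1.24).

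Markers of other tissues were checked in the same fit, in which 20.1% of all tested genes rose and 20.5% fell. Leaf mesophyll markers summed to 545453 to 550961 normalized counts in 0D Ver and 611173 to 774035 in 35D Ver, with 2 of 10 genes higher and 2 lower. Root markers summed to at most 9.76, and none was high enough to be tested. Floral organ markers summed to 53.7 to 64.8 in 0D Ver and 77.5 to 86.1 in 35D Ver, with 3 of 7 genes higher. All 3 were copies of *PI*, while the tested *AP3* copy Bra014822 did not pass (-0.67, limma adjusted p = 0.146) and the other 3 genes, among them both *AG* copies, were too low to be tested. Seed markers summed to 30.4 to 41.5 in 0D Ver and 10.1 to 11.9 in 35D Ver, and the 1 tested gene, the *OLE1* copy Bra010474, fell (-1.99, limma adjusted p = 0.0047).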

How the data were processed

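Shoot RNA of line “4004” was compared between 0D Ver and 35D Ver, 2 libraries each, grouped by the sample labels. The authors trimmed the reads, mapped them with Bowtie2 to *B. rapa* coding sequences and deposited other values than plain counts: whole read numbers per gene with commas and a lowest value of 1, not normalized. How reads that map to several genes were counted is not given in the sources used here. The labels also name edgeR, which was not used here. The members and lists were chosen with earlier results of these data known.

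Commas were removed. Genes with at least 10 scaled counts in at least 2 libraries and 15 in total were tested. Values were divided by TMM size factors (trims of 0.3 and 0.05), which were computed over the tested genes after a first version over all listed genes had been seen. Log2(value + 1) was fitted with limma 3.58.1 in R 4.3.3 (trend and robust moderation), with Benjamini-Hochberg adjustment and calls at an adjusted p below 0.05. Fold changes on this scale understate those of low genes. Copies were compared by the difference of their log2 values. The variance trend of this fit was not specified beforehand: limma's default was run first and is reported, and another trend was tried after seeing that it gave no call with fewer libraries. Copy sums were fitted per locus. Values in every library are given, in each role, for the highest copy of each locus and for every gene that passed with a 2-fold change, up to the 12 largest changes. In core synthesis and for *TGG1* more genes are given than this, and further members are named where leaving out a library changed a call or copies differed. These were chosen after their values were seen.

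The study's methods call its replicates biological and independent, and the labels say only that these libraries are replicates. P-values measure the spread between these libraries, and an exact permutation test of 2 against 2 cannot go below 0.333. Simulated data held 200 changed genes. Of these, 69 of 105 changed by 1 on the log2 scale and 95 of 95 changed by 2 were recovered. In the same data, 6 unchanged genes were called among 29931 tested. These numbers hold for the simulation only, and recovery in the deposited libraries was not tested. Alternatives were other size factors, filters and pseudocounts, 1 subtracted, voom weights, a replicate block, summed copies and leaving out each library. Figures were drawn with matplotlib 3.10.9.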

Additional observations from a re-analysis of the deposited data

How the results depend on the processing

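Of the 97 tested members, 53 kept their direction and their side of the threshold in every alternative that tested them, 44 of them called. Requiring at least 10 counts in every library gave 9 members that rose, 2 that rose 2-fold, 2 indolic members that rose and an indolic median of -2.15, since low genes that rose were no longer tested. With 1 library left out, members that rose ran from 9 to 15, those that rose 2-fold from 3 to 10, indolic members that rose from 3 to 7, aliphatic members that rose from 2 to 5, the aliphatic median from -0.26 to 0.29, the indolic median from -2.05 to -1.48 and loci that rose from 2 to 6.

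Copy pairs were the least stable result. Against 1807 pairs over all loci and 19 at glucosinolate loci, no filter gave 508 and 4, the replicate block 0 and 0, and leaving out any library 0 and 0. At an unadjusted p below 0.05, limma gave 4717 pairs over all loci and 23 at glucosinolate loci with the block. The following were chosen after seeing the data: a variance trend on the lower copy gave 3866 and 23, no trend 1499 and 19, and loci with up to 20 copies gave 62 pairs at glucosinolate loci. TMM factors over all listed genes, the version run before the reported one, gave 12020 called genes in place of 12042 and 57 called members in place of 58. Voom weights were not run for copy pairs.

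Over all tested genes, same-numbered replicates did not deviate together (correlation -0.17), so the numbers were not taken to pair the libraries. The aliphatic members differed from this, since replicate 1 was higher in both conditions for 32 of 40. The replicate block gave 7 aliphatic members that rose and 8 that fell, in place of 4 and 5. With the block, 9 members passed that had not in the main fit, and 3 lost their call. Those that passed included both *BCAT4* copies (limma adjusted p = 0.000772 and 0.000421) and both *NSP5* copies (4.99e-06 and 0.000176). With crossed numbers, chosen after seeing the data, none of these copies passed (0.427, 0.4, 0.338 and 0.401). Crossed numbers also gave 0 copy pairs over all loci and 0 at glucosinolate loci.

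The sign turned in these cases. Summed copies gave 0.29 for Bra035929 (*MYB28*), 0.17 for Bra009245 (*MYB29*), -0.26 for Bra021743 (*UGT74C1*) and -0.67 for the *TGG1* copies Bra039823, Bra039824, Bra016676 and Bra004012, by construction, as the sum is led by other copies. Bra023450 (*IMD1*) came to 0 with totals only and with voom. With 1 library left out, log2 fold changes of members that had not passed ran across 0: from -0.65 to 0.42 in Bra004744 (*IPMI2*), -0.39 to 0.39 in Bra026058 (*CYP79F1*), -0.18 to 0.15 in Bra036490 and -0.19 to 0.18 in Bra036703 (*SUR1*), -0.62 to 0.4 in Bra015936 (*SOT18*), -0.01 to 0.73 in Bra029355 and -0.19 to 0.34 in Bra013007 (*MAM1*), -0.25 to 0.3 in Bra023450, -0.34 to 0.88 in Bra005949 (*MYB29*), -0.12 to 0.01 in Bra016787 (*FMOGS-OX5*), -0.05 to 0.33 in Bra012961 (*MYB28*) and -0.1 to 0.39 in Bra021743. The cause was not tested.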
